A study of Mus musculus with 26 samples.

Results

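The Notch pathway genes Notch1, Notch2, Notch3, Dll1, Dll4, Jag1, Hes1, Hey1, Heyl and Hes6 were followed through muscle regeneration and myoblast differentiation by RNA sequencing. All 10 were chosen by gene symbol, and each had 1 row in both expression tables, among 53465 genes listed for muscle and 55487 for cells. In the muscle series, the tibialis anterior (TA) of mice was injured with cardiotoxin (CTX), a cobra toxin that kills muscle fibres and spares most satellite cells, and was sequenced on days 0, 1, 3, 5 and 10 with 2 libraries per day. The methods name male C57BL/6J mice of 6 weeks and saline as the control injection, whereas the labels name the reference only as day 0, so it is not settled whether day 0 muscle was untouched or given saline. In the cell series, C2C12 cells, a mouse myoblast line that stops dividing and fuses into myotubes when serum is withdrawn, were sequenced in growth medium (D0) and on day 3 of differentiation (D3). Each time point had 2 libraries of control cells (CTRL) and 2 of cells labelled Cas9M3, in which the methods describe a lentiviral dCas9-KRAB repressor, a Cas9 without nuclease activity joined to a silencing domain, guided to the promoter of Mettl3. The design text calls these cells knockout derivatives, and the methods describe drug-selected stable lines rather than single clones. Mettl3 encodes the catalytic subunit of the complex that writes N6-methyladenosine (m6A) on RNA. Libraries of cells overexpressing Mettl3 were not analysed here.

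Notch receptors are cut after they bind a Delta or Jagged ligand on a neighbouring cell, and the freed intracellular domain joins the DNA-binding protein RBPJ to switch on repressors of the Hes and Hey families. In adult muscle, this signal keeps satellite cells, the stem cells of the fibre, quiescent and restrains myoblasts from differentiating. Hes6 stands apart from the other Hes genes, because its protein binds Hes1 and opposes it and is known to favour myogenic differentiation. Bulk tissue also holds endothelial cells, in which Dll4 is the main Delta ligand, and vascular mural cells, in which Notch3 is abundant.

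Values were deposited as FPKM, fragments on a gene scaled to gene length and to a factor for each library. That factor did not simply follow the reads on genes. Levels of different genes can be set side by side within a table. From the steps between low values, the muscle libraries held 14200000 to 18800000 reads on genes and the cell libraries 14200000 to 29600000 reads. A single read on a 1 kb gene was worth 0.0494 to 0.0817 FPKM and 0.0315 to 0.104 FPKM, respectively. Mettl3 was at 4.70 and 5.65 FPKM in CTRL cells at D0 and at 4.68 and 5.15 FPKM at D3. It was at 0.331 and 0.118 FPKM in Cas9M3 cells at D0 and at 0.148 and 0.0805 FPKM at D3, so the labels and the targeted gene did not conflict. In muscle, Mettl3 ranged from 3.59 to 4.97 FPKM. Xist, an RNA of cells with more than 1 X chromosome, was at 5.77 to 10.0 FPKM in both day 0 libraries, both day 10 libraries and replicate 2 of day 3, and at most at 0.152 FPKM in the other 5 muscle libraries, although the methods name males. The sum of 4 Y-linked genes was 17.8 to 23.7 FPKM in the libraries without Xist and at most 0.216 FPKM in those with it. Day 3 was the only day with a library of each kind. Member calls that use day 3 are therefore also given without its libraries where a call was lost. Calls of other pathway genes and of markers are not given without single libraries. GEO labels do not say that replicates were separate animals or cultures. The day 3 libraries differed in Xist and Y-linked RNA, so they came from different animals. P-values measure only the spread between these libraries, which may be technical in the other groups.

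Hes6 and Dll1 were the members with the largest fitted rises in muscle and in control cells, and the 250 bases upstream of their RefSeq transcription starts are shown for that reason. Bases in capitals are E-boxes, CANNTG, the motif that the myogenic factors MyoD and myogenin bind. The windows are from GRCm38.p6 on the minus strand, chr1:91414039-91414288 and chr1:91413223-91413472 for Hes6 and chr17:15376933-15377182 and chr17:15375824-15376073 for Dll1.
Hes6, upstream start: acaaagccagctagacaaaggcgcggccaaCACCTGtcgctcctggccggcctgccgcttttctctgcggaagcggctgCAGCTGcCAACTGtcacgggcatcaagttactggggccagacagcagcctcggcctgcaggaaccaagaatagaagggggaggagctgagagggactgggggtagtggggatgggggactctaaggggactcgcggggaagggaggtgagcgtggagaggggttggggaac
Hes6, downstream start: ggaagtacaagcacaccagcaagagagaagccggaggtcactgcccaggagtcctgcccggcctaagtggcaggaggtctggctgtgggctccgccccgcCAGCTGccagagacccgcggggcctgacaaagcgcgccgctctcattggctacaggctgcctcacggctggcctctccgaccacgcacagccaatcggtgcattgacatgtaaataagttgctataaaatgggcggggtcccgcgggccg
Dll1, upstream start: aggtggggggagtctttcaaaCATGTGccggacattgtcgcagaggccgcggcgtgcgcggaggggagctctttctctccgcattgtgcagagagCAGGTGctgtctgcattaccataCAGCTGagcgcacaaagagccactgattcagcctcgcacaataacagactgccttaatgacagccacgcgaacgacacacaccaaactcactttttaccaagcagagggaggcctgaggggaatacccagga
Dll1, downstream start: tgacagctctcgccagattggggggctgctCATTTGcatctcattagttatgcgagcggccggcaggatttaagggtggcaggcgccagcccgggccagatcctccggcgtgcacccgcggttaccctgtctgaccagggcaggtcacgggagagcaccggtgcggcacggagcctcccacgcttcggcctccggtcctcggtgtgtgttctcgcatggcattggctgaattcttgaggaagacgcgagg

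The upstream windows of Hes6 and of Dll1 each held 3 E-boxes, and the downstream windows held 1 each. An E-box was found in 66.2% of all 32851 promoters of this length, and its CAGCTG form, present in 3 of these 4 windows, in 13% of them. Jag1, which was called in no comparison, held 1 E-box, also of the CAGCTG form. The windows of Notch1, Notch2, Notch3 and Dll4 held 0 E-boxes. The letters TGGGAA, the core bound by RBPJ, were found on either strand in 21.6% of all promoters and in 0 of the 9 windows of the 7 matched members. The Notch effectors Hes1, Hey1 and Heyl had no window and were not searched. The N-box, CACNAG, which Hes proteins bind, was in 36.7% of all promoters and in the windows of Notch1, Notch2, Notch3, Dll4 and the downstream start of Hes6. These matches describe the letters of the windows and do not show binding.

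Day 3 of regeneration separated the members. Against day 0, Hes6, Notch2, Heyl, Dll1 and Notch3 rose, Dll4 fell, and Notch1, Jag1, Hes1 and Hey1 did not pass the test. The 6 of 10 members called compare with 48.8% of the 16753 genes tested, so the share called was close to that of all genes. The 5 that rose compare with 24.5% of genes called higher and the 1 that fell with 24.3% called lower. The median log2 fold change was 0.71 over the 10 members and 0.008 over all genes tested. A gene was called where limma on log2(FPKM + 0.1) gave an adjusted p of 0.05 or less (Benjamini-Hochberg over all genes tested). All log2 fold changes are on this scale, which makes changes of low values look smaller than they are. With the further demand of a log2 fold change of 2 or more in either direction, called the fold threshold below, Hes6 was the 1 member called, against 13.3% of all genes.

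**Figure D1:**
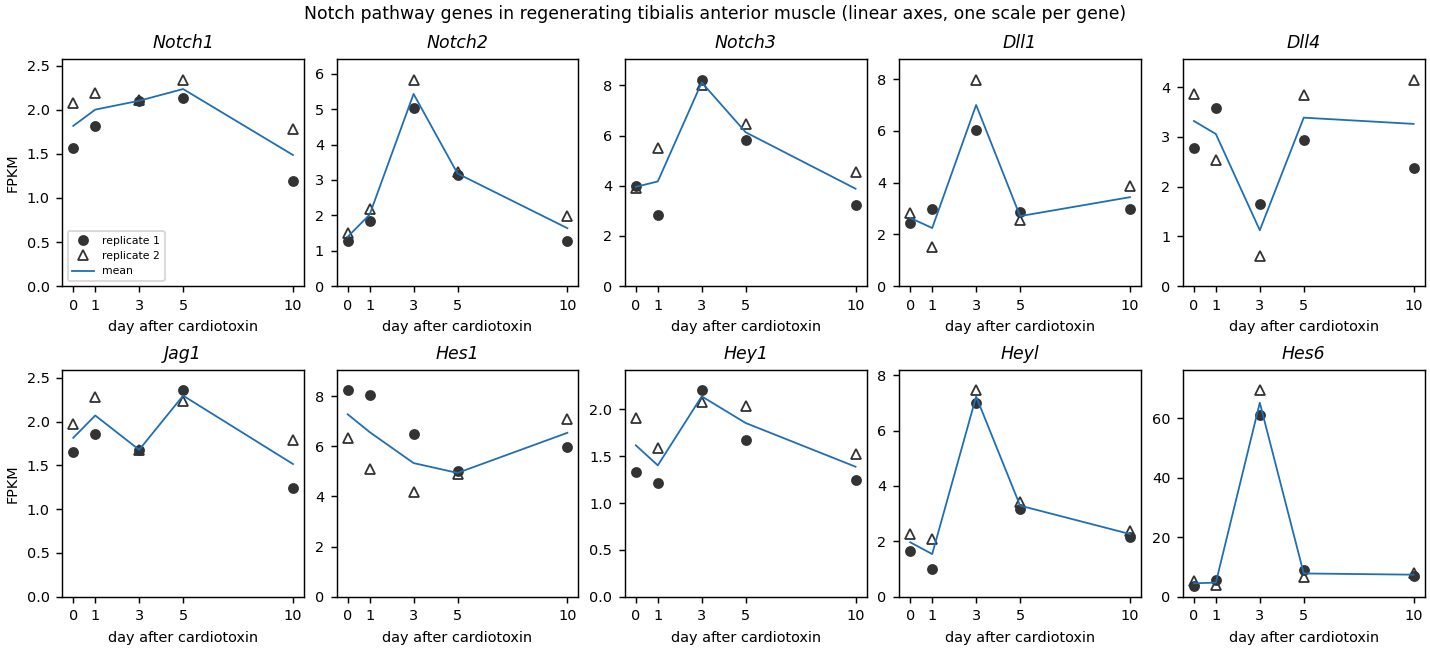
FPKM (linear vertical axis from 0, one scale per gene) of the 10 members by day after cardiotoxin. Each symbol is 1 library and the line joins the means of 2 libraries. Notch2, Notch3, Dll1, Heyl and Hes6 are highest in both libraries of day 3, and Dll4 is lowest in both.

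Among the receptors, Notch2 and Notch3 rose and Notch1 stayed within a narrow range. Notch2, which lies on chromosome 3 at 98013527 to 98150361 of GRCm38, was at 1.28 and 1.51 FPKM on day 0, 1.85 and 2.19 FPKM on day 1, 5.03 and 5.83 FPKM on day 3, 3.13 and 3.23 FPKM on day 5, and 1.29 and 1.99 FPKM on day 10. Both day 3 libraries exceeded every other library, and both day 5 libraries lay above days 0, 1 and 10. Notch2 was 3.7-fold higher on day 3 than on day 0 (log2 fold change 1.89 ± 0.22 SE, limma adjusted p = 0.000609). This call held without either day 3 library (adjusted p = 0.00421 and 0.00742 in limma).

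Notch3, on chromosome 17 at 32120820 to 32166852, was at 3.99 and 3.92 FPKM on day 0, 2.85 and 5.50 FPKM on day 1, 8.23 and 8.01 FPKM on day 3, 5.81 and 6.45 FPKM on day 5, and 3.23 and 4.54 FPKM on day 10. The day 3 values were the highest and did not overlap any other day. Notch3 was 2.03-fold higher on day 3 than on day 0 (log2 fold change 1.02 ± 0.29 SE, limma adjusted p = 0.0223). Leaving out any 1 library of these days ended the call with a log2 fold change of 1.00 to 1.04, as did a term for Xist (limma adjusted p = 0.0901). The limma adjusted p was then 0.0813 or 0.0739 without day 0 replicate 1 or 2, and 0.0855 or 0.0824 without day 3 replicate 1 or 2. With the Xist term 34.9% of all genes were called on day 3 against day 0. The summed FPKM of 6 pericyte and smooth muscle markers was 94.2 to 100 on day 0 and 60.8 to 74.7 on day 3. Of these markers, 2 were called higher, 2 lower and 2 not called. The part of these cells in the Notch3 result was not tested.

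Notch1, on chromosome 2 at 26457903 to 26516663, ranged from 1.19 FPKM on day 10 to 2.34 FPKM on day 5 and was at 1.56 and 2.07 FPKM on day 0 against 2.10 and 2.11 FPKM on day 3. The day 3 to day 0 difference was 0.21 on the log2 scale (95% interval -0.32 to 0.75, limma adjusted p = 0.471), and the libraries of these days did not overlap. The ratio of Notch2 to Notch1 within a library was 0.82 and 0.727 on day 0 and 2.4 and 2.77 on day 3, so the order of these receptors differed between the days. Among Notch1, Notch2 and Notch3, Notch3 had the highest FPKM in all 10 muscle libraries. Exons of Notch1, Notch2 and Notch3 overlap other annotated genes by 1482, 541 and 488 bases, and whether the counting used strand is not given in the sources used here. The overlapping genes of Notch1, 0610009E02Rik and Gm13568, were at 3.15 to 5.31 and 2.75 to 7.2 FPKM in muscle, above Notch1 itself, so its muscle values are uncertain. The partner of Notch2, Gm42820, was at most at 0.18 FPKM, and that of Notch3, Gm17276, was at 0.264 to 1.75 FPKM.

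The ligands moved in opposite directions. Dll1, on chromosome 17 at 15367354 to 15376872, is the Delta ligand known from activated muscle progenitors and their progeny. It was at 2.45 and 2.82 FPKM on day 0, 2.996 and 1.497 FPKM on day 1, 6.03 and 7.98 FPKM on day 3, 2.87 and 2.55 FPKM on day 5, and 3 and 3.88 FPKM on day 10. Both day 3 libraries stood above all other libraries. Dll1 was 2.58-fold higher on day 3 than on day 0 (log2 fold change 1.36 ± 0.31 SE, limma adjusted p = 0.00885). The call was lost without day 0 replicate 1 (1.27, limma adjusted p = 0.0525) and without day 3 replicate 2 (1.17, limma adjusted p = 0.0615). The summed FPKM of 6 satellite cell and myoblast markers was 23.2 to 31.9 on day 0 and 97.7 to 112 on day 3. Of the 5 of them tested, 4 were called higher. In bulk tissue, more cells of a type and more RNA per cell cannot be told apart. An antisense gene, A930024N18Rik, shares 867 exon bases with Dll1 and was at 0.353 to 1.45 FPKM in muscle. Its level in the cells was not recorded.

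Dll4, on chromosome 2 at 119325784 to 119335962, was at 2.77 and 3.87 FPKM on day 0, 3.59 and 2.53 FPKM on day 1, 1.64 and 0.603 FPKM on day 3, 2.93 and 3.84 FPKM on day 5, and 2.37 and 4.15 FPKM on day 10. Both day 3 libraries were below all others, replicate 2 far more so than replicate 1. Dll4 was 3.05-fold lower on day 3 than on day 0 (log2 fold change -1.61 ± 0.45 SE, limma adjusted p = 0.0213). The size rested on replicate 2 of day 3, without which the log2 fold change was -0.95 (limma adjusted p = 0.115), and the call was also lost without day 0 replicate 2 (-1.37, limma adjusted p = 0.0966) and in a fit of only these days (limma adjusted p = 0.0508). The summed FPKM of 8 endothelial markers was 83.4 to 107 on day 0, 49.4 to 63 on day 3, 81.4 to 113 on day 5 and 64.3 to 121 on day 10, and 3 of the 8 were called lower on day 3. The endothelial sum was lowest in the libraries in which Dll4 was lowest, and its part in the Dll4 result was not tested. The ratio of Dll1 to Dll4 within a library was 0.886 and 0.729 on day 0. It was 3.67 and 13.2 on day 3 but 1.26 and 0.935 on day 10. An antisense gene, Gm14207, shares 214 exon bases with Dll4 and was at 0.375 to 1.86 FPKM in muscle.

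Jag1, a ligand of the Jagged class on chromosome 2 at 137081456 to 137116644, was at 1.65 and 1.98 FPKM on day 0 against 1.68 and 1.68 FPKM on day 3. These days overlapped, with a log2 difference of -0.10 (95% interval -0.59 to 0.38, limma adjusted p = 0.712). Across all days Jag1 stayed between 1.25 and 2.36 FPKM.

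Of the Notch effectors, Heyl rose, whereas Hes1 and Hey1 were not called. Heyl, on chromosome 4 at 123233556 to 123249875, was at 1.66 and 2.27 FPKM on day 0, 1.01 and 2.07 FPKM on day 1, 7.01 and 7.45 FPKM on day 3, 3.16 and 3.42 FPKM on day 5, and 2.14 and 2.39 FPKM on day 10. Day 3 and then day 5 stood above the other days without overlap. Heyl was 3.58-fold higher on day 3 than on day 0 (log2 fold change 1.84 ± 0.30 SE, limma adjusted p = 0.00222), and it was still called without either day 3 library (adjusted p = 0.0135 and 0.018 in limma).

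Hes1, the best known Notch target of this family, on chromosome 16 at 30064384 to 30067796, was at 8.24 and 6.32 FPKM on day 0, 8.06 and 5.08 FPKM on day 1, 6.49 and 4.17 FPKM on day 3, 5.00 and 4.88 FPKM on day 5, and 5.97 and 7.11 FPKM on day 10. Day 3 overlapped day 0, and day 5 lay below days 0, 1 and 10 without overlap. The day 3 to day 0 difference was -0.46 on the log2 scale (95% interval -1.12 to 0.19, limma adjusted p = 0.208). Hey1, on chromosome 3 at 8663359 to 8667256, was at 1.33 and 1.90 FPKM on day 0 against 2.20 and 2.07 FPKM on day 3. The libraries of these days did not overlap, but the log2 difference of 0.40 was not called (95% interval -0.13 to 0.94, limma adjusted p = 0.185).

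Hes6, on chromosome 1 at 91411483 to 91414038, had the largest fold change of the members. It was at 3.73 and 5.30 FPKM on day 0, 5.56 and 3.92 FPKM on day 1, 61.1 and 69.4 FPKM on day 3, 8.89 and 6.76 FPKM on day 5, and 6.87 and 7.97 FPKM on day 10. The day 3 libraries lay far above all others, which ranged from 3.73 to 8.89 FPKM. Hes6 was 14.3-fold higher on day 3 than on day 0 (log2 fold change 3.84 ± 0.24 SE, limma adjusted p = 0.000263) and remained called without either day 3 library (adjusted p = 0.00217 and 0.00396 in limma). The ratio of Hes6 to Hes1, its binding partner, within a library was 0.453 and 0.838 on day 0. It was 9.41 and 16.6 on day 3, then 1.78 and 1.39 on day 5, then 1.15 and 1.12 on day 10. Hes1 was thus the higher of the pair in both libraries of days 0 and 1, and Hes6 was the higher in every library from day 3 on. Of 6 markers of differentiating myocytes, 4 were called higher on day 3 than on day 0, 1 was called lower and 1 was not called. All 6 cell division markers and all 6 macrophage markers were called higher, and all 6 mature fibre markers lower. The part of these cells in the member results was not tested.

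Members were called against day 0 on days 3 and 5 and not on days 1 and 10. On day 1, 0 of 10 members differed from day 0 by limma, against 6% of all genes (1.48% with the fold threshold), and 0 had an unadjusted p under 0.05. Here and below, counts at an unadjusted p have no share of all genes beside them, because that share was not computed. The same 6 members that were called against day 0 were called on day 3 against day 1, in the same directions, against 31.1% of all genes (14.5% higher and 16.6% lower). These comparisons share the day 3 libraries. With the fold threshold, Hes6 and Heyl were the 2 called, against 6.02% of all genes. Hes6 was 13.7-fold, Heyl 4.72-fold and Notch2 2.61-fold higher on day 3 than on day 1 (limma adjusted p = 0.000919, 0.00347 and 0.0051). Without replicate 2 of day 3, fewer members were called, and the share of all genes called in that fit was not recorded. Dll1 was 3.16-fold higher and lost its call without that library (limma adjusted p = 0.0656). Notch3 was 2.02-fold higher and lost its call without day 1 replicate 1 (log2 fold change 0.55) or any 1 library of days 0, 3 and 5 (limma adjusted p = 0.0501 to 0.13 over these fits). Dll4 was 2.81-fold lower and lost its call without any 1 library of days 0, 1 and 5 or without day 3 replicate 2 (log2 fold change -0.84), with a limma adjusted p of 0.0536 to 0.215.

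By day 5 against day 3, Hes6 was 8.31-fold lower (log2 fold change -3.05, limma adjusted p = 0.00507) and Dll1 was 2.51-fold lower (log2 fold change -1.33, limma adjusted p = 0.0336), which made 2 of 10 members against 12.7% of all genes, or 5.46% counting only genes that were lower. With the fold threshold, Hes6 was the 1 called, against 1.67% of all genes. Neither call held without replicate 2 of day 3, with a limma adjusted p of 0.0518 for Hes6 and 0.197 for Dll1. The Dll1 call was also lost without day 3 replicate 1 (limma adjusted p = 0.0836) and without day 5 replicate 1 or 2 (limma adjusted p = 0.126 and 0.159). Heyl had a log2 fold change of -1.11 (limma adjusted p = 0.0511), Notch2 of -0.75 (limma adjusted p = 0.0643) and Dll4 of 1.64 (limma adjusted p = 0.0545), just outside the threshold. Against day 0, Notch2 was 2.2-fold higher on day 5 (limma adjusted p = 0.0159) and Hes6 1.73-fold (limma adjusted p = 0.0486), 2 of 10 members against 25.5% of all genes, or 12.9% counting only genes that were higher. With the fold threshold, 0 were called, against 5.17% of all genes. The day 5 and day 0 libraries also differed in Xist. With a term for Xist the limma adjusted p was 0.19 for Notch2 and 0.29 for Hes6. That term could be fitted only from day 3, and with it 0% of all genes were called, so the loss was not particular to these members. Without day 0 replicate 1, day 5 replicate 1 or day 5 replicate 2, the limma adjusted p was 0.104, 0.0616 and 0.105 for Notch2 and 0.261, 0.216 and 0.116 for Hes6. The Hes6 call was lost as well without day 3 replicate 1 or 2 (limma adjusted p = 0.0731 and 0.0732) and without day 10 replicate 1 or 2 (0.0605 each). Against day 1, 0 of 10 members were called on day 5 by limma, against 8.37% of all genes (2.34% with the fold threshold). An unadjusted limma p under 0.05 was found for 3 members, which cannot be set against these shares at the adjusted p.

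On day 10, 6 of 10 members differed from day 3, against 37.9% of all genes (19.1% higher and 18.8% lower), and both this comparison and that of day 3 with day 0 use the same day 3 libraries. Hes6 was 8.7-fold, Notch2 3.24-fold and Heyl 3.1-fold lower (limma adjusted p = 0.000558, 0.00137 and 0.00536). Dll4 was 2.93-fold higher, and Notch3 and Dll1 were 2.09-fold and 2-fold lower. With the fold threshold, Hes6 was the 1 called, against 8.28% of all genes. Fewer members were called without replicate 2 of day 3, and the share of all genes called in that fit was not recorded. Notch3 lost its call without either day 3 library or day 10 replicate 1 (limma adjusted p = 0.0932 to 0.14). Dll1 lost it without any 1 library of days 0, 3, 5 and 10 (limma adjusted p = 0.0525 to 0.188), and Dll4 without day 3 replicate 2 or day 10 replicate 2 (limma adjusted p = 0.163 and 0.136). Between day 10 and day 0, whose libraries all contained Xist, 0 of 10 members were called by limma, against 0.00597% of all genes, and 1 had an unadjusted p under 0.05. That member was Hes6, at 0.72 on the log2 scale (95% interval 0.16 to 1.28, limma adjusted p = 0.424), with both day 10 libraries above both day 0 libraries.

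**Figure D2:**
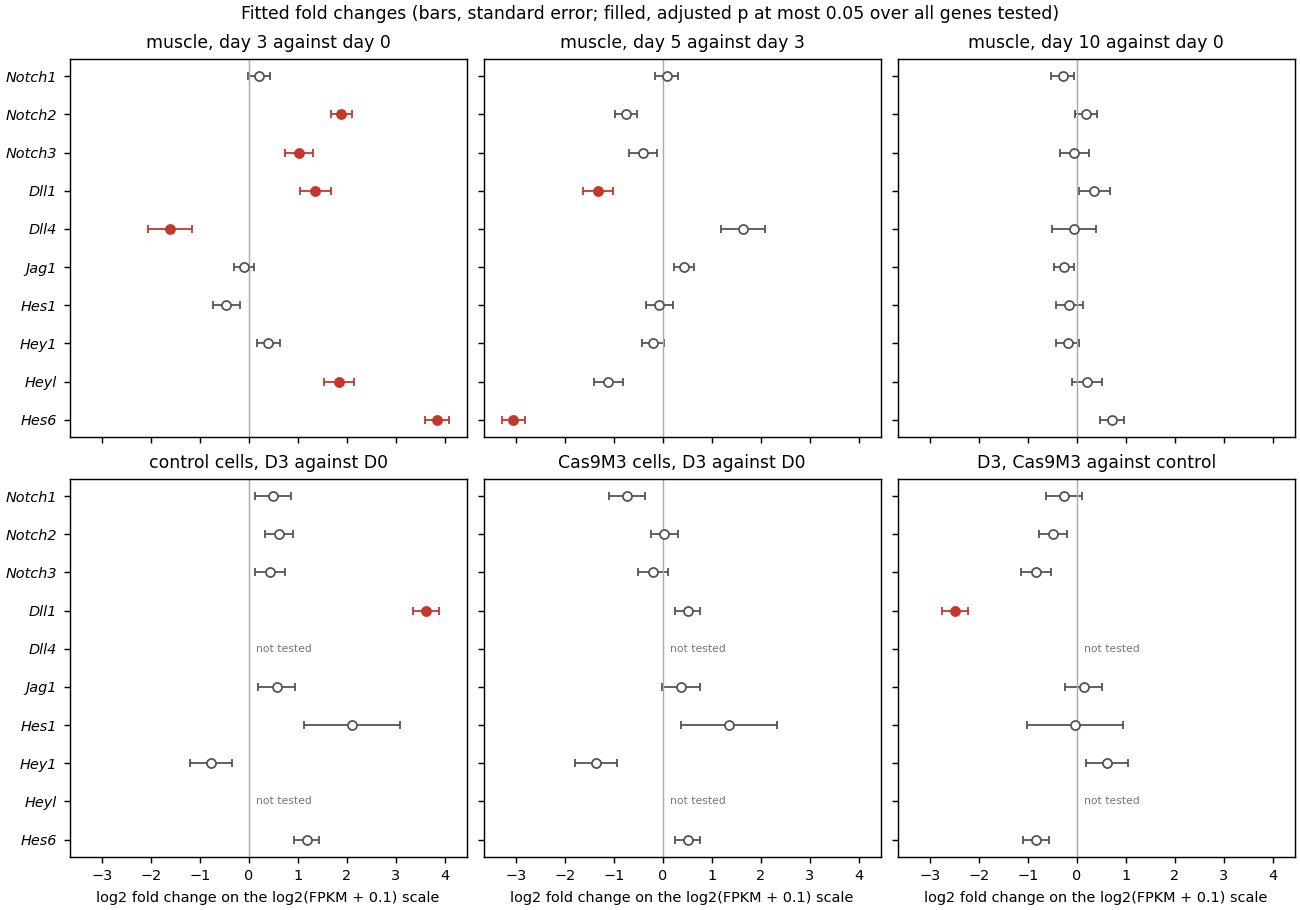
Log2 fold changes of the members on the log2(FPKM + 0.1) scale (horizontal axis) in 3 muscle and 3 cell comparisons. Points are fitted values, bars are standard errors, and filled points have an adjusted p of at most 0.05 over all genes tested. Hes6 has the largest value on day 3 of regeneration (3.84), and Dll1 is the member called in the cell comparisons, at 3.62 in differentiating control cells and -2.49 in Cas9M3 against control cells at D3.

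The other pathway genes were called on day 3 about as often as all genes. Of 50 other pathway genes, 42 were tested, and 14 were higher, 9 lower and 19 not called on day 3 against day 0, with a median log2 fold change of 0.11. Over all genes tested 24.5% were higher and 24.3% lower, so neither these counts nor those of the groups within the list are read as particular to the pathway. Among 8 tested negative regulators, 3 rose and 2 fell, led by Numbl, a relative of the Notch inhibitor Numb, from 0.342 and 0.743 to 3.11 and 3.68 FPKM (5.7-fold, limma adjusted p = 0.000855), and Dtx4, a Deltex ubiquitin ligase, from 1.25 and 1.75 to 5.84 and 5.34 FPKM (3.59-fold, limma adjusted p = 0.00212). Among 10 genes of receptor processing, 5 rose and 2 fell. The gamma-secretase subunit genes Aph1c and Psen2 rose 4.97-fold and 2.88-fold (limma adjusted p = 0.0018 and 0.00123), from 0.278 and 0.273 to 1.47 and 2.12 FPKM and from 2.69 and 2.32 to 5.84 and 9.33 FPKM. Lfng, a Fringe glycosyltransferase that changes which ligand a receptor answers to, was at 1.09 and 2.54 FPKM on day 0 and 5.42 and 6.51 FPKM on day 3 (3.41-fold, limma adjusted p = 0.0178), and 2 of 5 glycosylation genes rose and 1 fell.

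In the nuclear complex, 4 of 12 genes rose and 4 fell. The co-activator gene Maml3 rose 2.39-fold (limma adjusted p = 0.00746), from 0.322 and 0.521 to 0.995 and 1.26 FPKM. The Groucho-type corepressors moved apart, with Tle3 at 0.792 and 1.19 FPKM on day 0 and 3.43 and 3.43 FPKM on day 3 (3.29-fold higher, limma adjusted p = 0.000909) and Tle1 at 3.47 and 3.74 FPKM on day 0 and 1.26 and 1.05 FPKM on day 3 (2.96-fold lower, limma adjusted p = 0.000507). None of 4 ligand ubiquitination genes and none of the 3 tested other receptors and ligands was called by limma. Hes2, Hes3, Hes5, Hes7 and Hey2 were too low to be tested in either table. On day 10 against day 3, 6 of the 42 were higher and 11 lower, against 19.1% and 18.8% of all genes, and against day 0, 0 of 42 were called by limma, against 0.00597% of all genes.

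In C2C12 cells, 8 of 10 members were tested. Dll4, at 0 to 0.0283 FPKM, and Heyl, at 0 to 0.107 FPKM, were near the limit of detection, with at most 2 and 15 reads in a library. The summed FPKM of the 8 endothelial markers was at most 0.824, most of it from Egfl7, at up to 0.646 FPKM. Pecam1 was at 0 to 0.0166 FPKM and Cldn5 at 0 in all 8 libraries. Ptprc, a leukocyte marker, was at most at 0.00392 FPKM. By FPKM, the means in CTRL cells at D0 ran from Hes6 (16.7 ± 4.96 SD, n = 2), Notch2 (13.8 ± 0.184) and Notch3 (11.3 ± 0.0539) through Jag1 (3.70 ± 1.49), Hes1 (3.08 ± 3.05) and Notch1 (1.96 ± 0.082) to Hey1 (0.647 ± 0.107) and Dll1 (0.625 ± 0.157). Hes6 and Notch2 overlapped, as did Jag1 and Hes1, Hes1 and Notch1, and Hey1 and Dll1, while Notch2 and Notch3 did not. Notch2 exceeded Notch3 and Notch1 in all 8 cell libraries, at 3.17 to 8.21 times the FPKM of Notch1, and all muscle libraries had more Notch3 than Notch2.

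**Figure D3:**
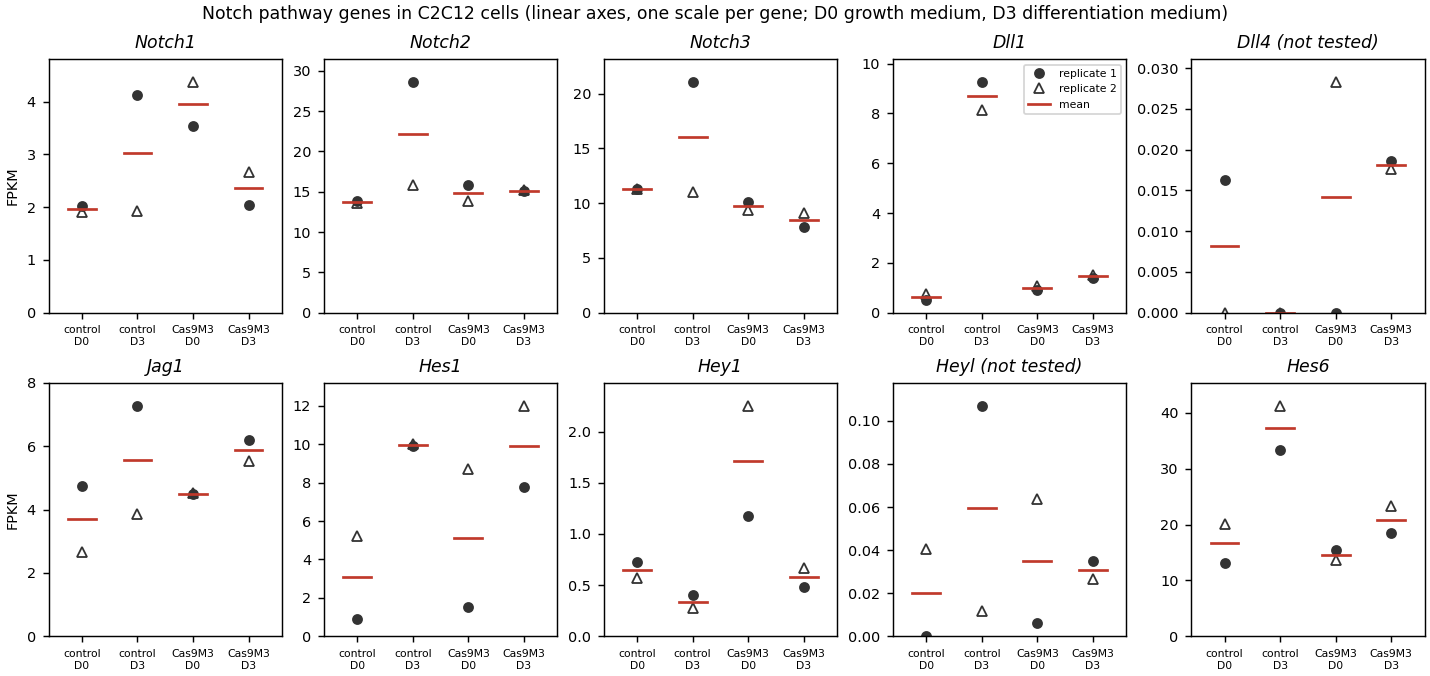
FPKM (linear vertical axis from 0, one scale per gene) of the 10 members in C2C12 cells, by cell line and time. Each symbol is 1 library and the short lines are means of 2 libraries. Dll1 in control cells at D3 (8.15 and 9.26 FPKM) stands apart from the other groups (0.514 to 1.52 FPKM).

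Dll1 was higher in control cells at D3 than at D0. It was at 0.514 and 0.736 FPKM in CTRL cells at D0 and at 9.26 and 8.15 FPKM at D3, and at 0.916 and 1.08 FPKM in Cas9M3 cells at D0 and 1.41 and 1.52 FPKM at D3. The D3 control libraries were far above the other 6, and the Cas9M3 libraries at D3 lay just above those at D0. Dll1 was 12.3-fold higher in control cells at D3 than at D0 (log2 fold change 3.62 ± 0.26 SE, limma adjusted p = 0.0145), 1 of 8 members against 1.14% of the 13824 genes tested (0.767% higher, and 0.694% with the fold threshold, which Dll1 passed). With the replicate block 2.97% of genes were called, Dll1 among them (limma adjusted p = 0.0118). The reads behind these values were 69 and 30 at D0 and 1071 and 572 at D3. The limma adjusted p was 0.29 or 0.198 without CTRL D3 replicate 1 or 2, and 0.0947 or 0.0949 without Cas9M3 D3 replicate 1 or 2, with log2 fold changes of 3.52 to 3.71. It was 0.119 in a fit of only the control cells.

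In Cas9M3 cells, the corresponding D3 to D0 difference of Dll1 was 0.51 on the log2 scale (95% interval -0.11 to 1.13, limma adjusted p = 0.509). At D3, Dll1 was 5.62-fold lower in Cas9M3 than in CTRL cells (log2 fold change -2.49 ± 0.26 SE, limma adjusted p = 0.0203), 1 of 8 members against 1.98% of all genes (0.687% lower, and 1.19% with the fold threshold, which Dll1 passed). With the replicate block 3.65% of genes were called, Dll1 among them (limma adjusted p = 0.0159). This call was lost without any 1 of the 4 D3 libraries. The limma adjusted p was 0.259 or 0.223 without CTRL D3 replicate 1 or 2 and 0.236 or 0.266 without Cas9M3 D3 replicate 1 or 2, at log2 fold changes of -2.58 to -2.40. The test of the difference between the Cas9M3 effect at D3 and that at D0 gave -3.10 on the log2 scale for Dll1, with a limma adjusted p of 0.266 and an unadjusted p of 0.000106. It called 0 of 8 members and 0% of all genes, with 1 member at an unadjusted p under 0.05.

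Hes6 was also highest in control cells at D3, without passing the test. It was at 13.2 and 20.2 FPKM in CTRL cells at D0, 33.3 and 41.3 FPKM in CTRL cells at D3, 15.4 and 13.7 FPKM in Cas9M3 cells at D0, and 18.5 and 23.3 FPKM in Cas9M3 cells at D3. The control D3 libraries were above all others. The log2 difference of D3 from D0 was 1.18 in control cells (95% interval 0.55 to 1.81, limma adjusted p = 0.101) and 0.51 in Cas9M3 cells (95% interval -0.12 to 1.14, limma adjusted p = 0.515). At D3 it was -0.83 between Cas9M3 and CTRL cells (95% interval -1.46 to -0.21, limma adjusted p = 0.166). With the replicate block the limma adjusted p of Hes6 was 0.0521 in control cells and 0.303 in Cas9M3 cells for D3 against D0. Between the lines at D3 it was 0.093 with the block.

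Markers of differentiation are given beside Dll1. The summed FPKM of the 6 differentiating myocyte markers was 8.3 to 24.7 in CTRL cells at D0 and 333 to 367 at D3, and 1.56 to 30.5 in Cas9M3 cells at D0 and 8.05 to 10.9 at D3. The sum of the satellite cell and myoblast markers was 6.75 to 8.54 and 87.6 to 91.7 in CTRL cells, and 5.9 to 21.7 and 19.5 to 20.4 in Cas9M3 cells, at D0 and D3. Pax7 was at most at 0.0373 FPKM in these cells, and nearly all of the sum came from Myf5, Myod1 and Cdh15. Of the 6 myocyte markers, 0 were called by limma in control cells between D3 and D0, with a median log2 fold change of 4.12, and 1 was called lower in Cas9M3 cells at D3, with a median of -5.01. The part of differentiation itself in the Dll1 result was not tested.

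**Figure D4:**
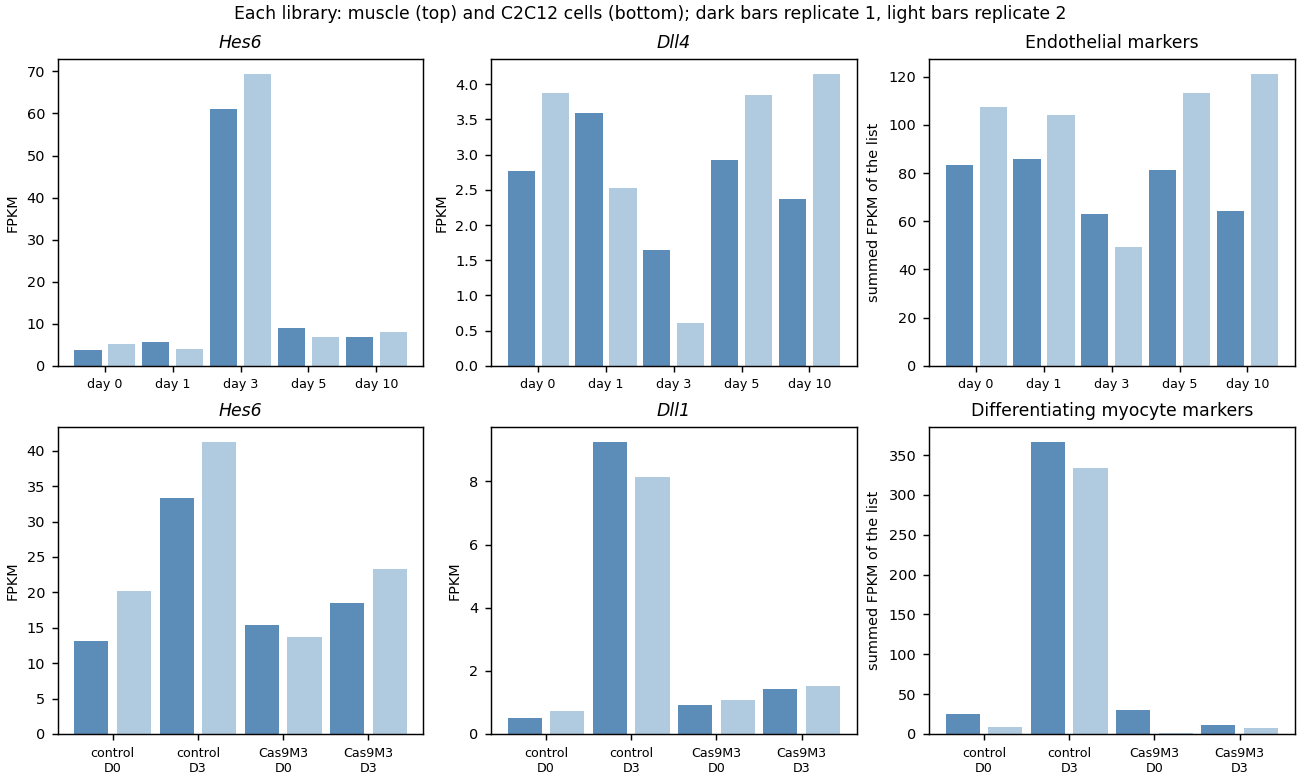
FPKM of members and summed FPKM of marker lists in each library (bars from 0, linear axes). In muscle, Hes6 peaks on day 3 while Dll4 and the endothelial sum are lowest there. In C2C12 cells, Dll1 and the differentiating myocyte sum are high in both control libraries at D3 (333 to 367 summed FPKM) and low in all Cas9M3 libraries.

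The receptors were not called in any cell comparison by limma. In CTRL cells, Notch2 was at 13.9 and 13.6 FPKM at D0 and at 28.6 and 15.8 FPKM at D3, and in Cas9M3 cells at 15.9 and 13.8 FPKM and at 15.1 and 15.2 FPKM. Notch3 was at 11.3 and 11.3 FPKM and at 21.0 and 10.98 FPKM in CTRL cells, and at 10.1 and 9.39 FPKM and at 7.83 and 9.10 FPKM in Cas9M3 cells. Notch1 was at 2.02 and 1.91 FPKM and at 4.13 and 1.92 FPKM in CTRL cells, and at 3.54 and 4.37 FPKM and at 2.05 and 2.67 FPKM in Cas9M3 cells. Replicate 1 of CTRL D3 was the highest library for Notch2, Notch3 and Jag1 and stood apart from its own replicate 2. At D0, Notch1 was 1.95-fold higher in Cas9M3 than in CTRL cells without overlap (log2 fold change 0.97, 95% interval 0.06 to 1.87), which did not pass the adjustment (limma adjusted p = 0.539, unadjusted p = 0.0398).

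Jag1 was at 4.76 and 2.65 FPKM in CTRL cells at D0 and 7.28 and 3.87 FPKM at D3, and at 4.49 and 4.51 FPKM in Cas9M3 cells at D0 and 6.19 and 5.55 FPKM at D3. The control libraries overlapped between D0 and D3. Hes1 differed widely between replicates at D0, with 0.926 and 5.24 FPKM in CTRL cells at D0, 9.88 and 10.0 FPKM at D3, 1.54 and 8.72 FPKM in Cas9M3 cells at D0, and 7.77 and 12 FPKM at D3. At D0, replicate 1 was low and replicate 2 high in both lines. Marker sums also differed between these D0 libraries. Cell division markers summed to 80.0 and 312 FPKM in CTRL and 128 and 200 FPKM in Cas9M3 cells. Mature fibre markers went the other way, at 116.5 and 12.7 FPKM in CTRL and 77.95 and 4.56 FPKM in Cas9M3 cells. So did differentiating myocyte markers, at 24.7 and 8.30 FPKM in CTRL and 30.5 and 1.56 FPKM in Cas9M3 cells. The part of these differences in the Hes1 values was not tested. The log2 difference of D3 from D0 in control cells was 2.10 for Hes1 (95% interval -0.28 to 4.48, limma adjusted p = 0.313). It was higher at D3 than at D0 within each replicate number of both lines. With the replicate block the limma adjusted p was 0.117 in control cells and 0.362 in Cas9M3 cells.

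Hey1 was low, at 0.723 and 0.571 FPKM in CTRL cells at D0, 0.402 and 0.276 FPKM at D3, 1.17 and 2.25 FPKM in Cas9M3 cells at D0, and 0.484 and 0.667 FPKM at D3. Both lines had less Hey1 in each D3 library than in either D0 library. The log2 difference was -0.77 in control cells (limma adjusted p = 0.363) and -1.37 in Cas9M3 cells (limma adjusted p = 0.259), and at D0 Hey1 was 2.33-fold higher in Cas9M3 than in CTRL cells (limma adjusted p = 0.51). In Cas9M3 cells between D3 and D0, 0 of 8 members were called by limma, against 0.0289% of all genes (0.0651% with the replicate block), and 1 had an unadjusted p under 0.05. Between Cas9M3 and CTRL cells at D0, 0 of 8 members and 0% of all genes were called by limma. An unadjusted limma p under 0.05 was found for 2 members, and the share of all genes at that threshold was not computed. Of the other 50 pathway genes, 38 were tested in cells, and 0 were called by limma in any of these comparisons.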

How the data were processed

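RNA was extracted with TRIzol and made into SMARTER mRNA-seq libraries. The authors used HISAT2 with GRCm38, featureCounts with Ensembl genes and the fpkm function of DESeq2 to make the deposited FPKM values. Versions and strand setting are not given in the sources used here. The tables of muscle (10 libraries) and cells (8 libraries) were scaled separately, so no value was compared across them. Sample titles gave the groups and replicate numbers.

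Genes reaching 0.5 FPKM in 2 or more libraries entered the test (16753 in muscle, 13824 in cells) as log2(FPKM + 0.1) with limma 3.58.1 (lmFit, eBayes with trend, R 4.3.3), all groups of a table in 1 fit, with Benjamini-Hochberg adjustment and calls at 0.05. Intervals are 95% limits of that fit. Depth was recovered from the steps of low values with GENCODE M21 exon lengths (97.23% to 98.99% of values up to 10 reads whole within 0.05) and entered no test. The script was tested on simulated data with independent normal noise and few changed genes, all above a minimum mean level. In the real data, 48.8% of genes were called on day 3 against day 0, and cell replicates deviated together. The simulated counts therefore need not hold for these data. In simulated day 3 against day 0 muscle it called 33 of 67 genes changed by 1 on the log2 scale and 64 of 67 changed by 2, with 12 of 15546 tested genes called wrongly. In simulated control cells at D3 against D0 it called 12 of 67 and 39 of 67, with 9 of 13202 called wrongly. Promoters are RefSeq windows of GRCm38.p6, matched for 7 members (not Hes1, Hey1 or Heyl). Python 3.11.15, pandas 2.3.3, numpy 2.4.6 and matplotlib 3.10.9 were used.

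In cells, replicates with the same number deviated together (6 correlations of 0.278 to 0.68, all above 0.1). The numbers therefore pair the libraries by this measure, and the sources give no reason. The cell libraries also differed by replicate number in depth and in the most abundant gene. Replicate 1 libraries held 25170000 to 29570000 reads on genes, with mt-Co1 highest at 8002.99 to 10179.3 FPKM. Replicate 2 libraries held 14230000 to 18900000 reads, with Gm23935 or CT010467.1 highest at 32035.5 to 354482 FPKM. The part of these differences in the member values was not tested. The members and lists were chosen with earlier results of these data known. All 10 members are named, and other pathway genes only where called with an absolute log2 fold change of at least 1 in day 3 against day 0, control D3 against D0, or Cas9M3 against control cells, at most 4 per list. A930024N18Rik, Gm14207, the genes that overlap the receptors and the low Hes and Hey genes were named after values were seen. So were Egfl7, Pecam1, Cldn5, Pax7, Myf5, Myod1, Cdh15, Ptprc, mt-Co1, Gm23935 and CT010467.1. Alternatives were pseudocounts of 1 and 0.01, no filter, a 1 FPKM filter, scaling by median ratios, a replicate block, quantile normalization, a term for Xist, only the groups compared, the fold threshold of the study, and each library left out.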

Additional observations from a re-analysis of the deposited data

How the results depend on the processing

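Of 24 called fold changes of members, 365 refits under alternatives kept the call, 85 lost it and 0 changed direction. The number of members called on day 3 against day 0 (6) was 3 to 6 over fits leaving out 1 library and 1 with the study's fold threshold. On day 3 against day 1 (6) it was 3 to 6, 3 with the Xist term and 2 with that threshold, and on day 10 against day 3 (6) it was 3 to 6 and 1 with that threshold. On day 5 against day 0 (2) it was 0 to 4 leaving out 1 library, 1 with a pseudocount of 0.01, without a filter or with the replicate block, and 0 with the Xist term or the fold threshold. On day 5 against day 3 (2) it was 0 to 3 leaving out 1 library, 5 with a pseudocount of 1 or quantile normalization, 4 with a filter of 1 FPKM, the replicate block or only the groups compared, 1 without a filter or with the fold threshold, and 0 with the Xist term. On day 1 against day 0 (0) it was 0 to 1, and on day 5 against day 1 (0) it was 0 to 2 leaving out 1 library and 1 with a pseudocount of 1 or the replicate block. In control cells at D3 against D0 (1) it was 0 to 2, 2 with quantile normalization, which added Hes6 (1.31, limma adjusted p = 0.0499), and 0 with only the groups compared. For Cas9M3 against CTRL cells at D3 (1) it was 0 to 1, and 2 with only the groups compared, which added Hes6 (limma adjusted p = 0.0313). The other 4 comparisons gave 0 in every fit. Shares of all genes called were recorded only for the main fit, the fold threshold, the replicate block and the Xist term. Member counts under the other alternatives therefore cannot be set against all genes. With the Xist term, 0% of all genes were called on day 5 against day 0 and on day 5 against day 3. On day 3 against day 1 the term left 8.17% of all genes called, against 31.1% without it. The causes were not tested.

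Scaling by median ratios did not move the median of all genes in any comparison. Refits with it are among those counted above and were no separate check, because it left these medians as they were. Quantile normalization moved the median on day 3 against day 0 from 0.008 to -0.116. The 6 called members kept their directions under it, from Hes6 at 4.07 to Dll4 at -1.87. In muscle, libraries with the same replicate number correlated at -0.0187 to 0.211 in their deviations, so the numbers do not pair them. With the replicate block, the genes called on day 5 against day 1 went from 1403 to 2115, and Notch2 and Heyl were added on day 5 against day 3 (limma adjusted p = 0.0348 and 0.0304), as was Hey1 on day 10 against day 3 (0.0421) and Heyl on day 5 against day 1 (0.0314). The block ended the calls of Dll4 on day 3 against day 1 (0.0554), Dll1 on day 10 against day 3 (0.0508) and Hes6 on day 5 against day 0 (0.0615). In cells, the block moved the genes called from 158 to 411 (control D3 against D0), from 274 to 505 (Cas9M3 against CTRL at D3) and from 4 to 9 (Cas9M3 D3 against D0), and it changed no call of a member. A lone library of a day or group was assumed to vary like the others. At 2 libraries per group, differences of 1 on the log2 scale were often missed in the simulation, whose settings differed from the data. Dll4 and Heyl could not be tested in cells.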
